A study of Mus musculus with 9 samples.

Results

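Trp63, on mouse chromosome 16 at 25683763 to 25892088 (mm10; 208 kb), is the gene described here through the Sox2 binding summits listed in and around it. A summit is the position of highest signal that the authors' peak caller gave within a bound region, and it was assigned to Trp63 when it lay inside the gene's RefSeq span or within 50 kb of it. Of 3370 summits in the 3 Sox2 ChIP-seq lists, 6 met this rule, namely 1 of 552 in wildtype cells, 0 of 229 in cells with ectopic Sox2 and 5 of 2589 in cells with ectopic Sox2 and Nkx2-1 deletion. All 6 lay inside the gene. In the Nkx2-1 deleted list, 4.41% of protein-coding genes held a summit inside their span.

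Trp63 encodes p63, a transcription factor of the p53 family. It maintains basal cells and stratified squamous epithelia, and in the mouse lung it marks the basal cells of the large airways and is not a normal product of alveolar epithelium. The gene has an upstream promoter, which gives the transactivating (TA) isoforms, and an internal promoter, which gives the N-terminally truncated isoforms of basal cells. Sox2, a foregut transcription factor, is expressed with p63 in basal and oesophageal cells, and Nkx2-1 sets lung identity.

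The cells were lung epithelial cells of the C57BL/6 strain at 8 weeks of age, and the 3 conditions were wildtype, ectopic Sox2 expression, and ectopic Sox2 expression together with deletion of Nkx2-1. Each condition had 1 library each of input, IgG and anti-Sox2 ChIP, and the Sox2 ChIP libraries had the summit lists used here. The labels do not say what drove ectopic Sox2, how Nkx2-1 was deleted or whether animals were pooled. With 1 library per condition no difference has a replicate check, no p-value is given between conditions, and the 95% intervals cover counting error only. A summit list holds no expression values, so the cell type, the ectopic Sox2 and the deletion could not be checked against marker levels.

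The libraries differed in depth. From the listed values, mean ChIP coverage was 0.963 fragments in wildtype, 0.764 in the ectopic Sox2 library and 1.45 in the Nkx2-1 deleted one, so the last was 1.51 times as deep as wildtype and 1.90 times as deep as ectopic Sox2 alone. A summit lay within 50 kb of 2.85% of the 21883 protein-coding genes in wildtype, of 1.53% in the ectopic Sox2 list and of 13.1% in the Nkx2-1 deleted list. A gene without a summit in the ectopic Sox2 list was therefore the common case. Of the 2872 genes that had one after Nkx2-1 deletion, 93.3% had none in the ectopic Sox2 list.

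The strongest Trp63 summit with Nkx2-1 deletion lay at 25780339, 96.6 kb from the lower end of the span and 46.4% of the way along it. Its region, at chromosome 16, 25780113 to 25780525, was 413 bp wide. It rested on 83 ChIP fragments (interval 66.1 to 103), a count recovered from the authors' fold and −log10 p, and had an authors' fold over control of 9.03 and a −log10 q of 19.9. In its list it ranked 41 of 2589 by q, and among the 2872 genes with a summit within 50 kb, Trp63 ranked 46 by its best q.

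The other Trp63 summits with Nkx2-1 deletion were weaker and all lay closer to the upper end. The gene is read from the lower to the higher coordinate, as general knowledge, since the table used gives no strand. The summit at 128.5 kb from the lower end (25812099 to 25812298) rested on 21 fragments (13.0 to 32.1), with a fold of 4.95 and a −log10 q of 2.37, which placed it above only 7.61% of its list. Then came a pair 4.39 kb apart. The first of the pair (25856442 to 25856661) had 27 fragments (17.8 to 39.3), a fold of 6.22 and a −log10 q of 5.06. The second (25860811 to 25861043) had 25 fragments (16.2 to 36.9), a fold of 6.58 and a −log10 q of 5.19. The last summit (25889964 to 25890163) lay 2024 bp from the upper end of the span and had 29 fragments (19.4 to 41.6), a fold of 7.38 and a −log10 q of 7.08, at position 943 by q. The intervals of these 4 summits overlapped one another, and that of the strongest summit overlapped none of them.

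The 5 summits thus covered 110 kb of the gene (109.7 kb from the first to the last), and the 96.6 kb next to the lower end, where the upstream promoter lies, held none. The spacings along the gene were 31.9 kb, 44.3 kb, 4.39 kb and 29.1 kb. Whether a summit fell in an exon or an intron was not analysed here, nor was its distance to the internal promoter. No promoter entry for Trp63 was matched, and no sequence is shown.

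**Figure D1:**
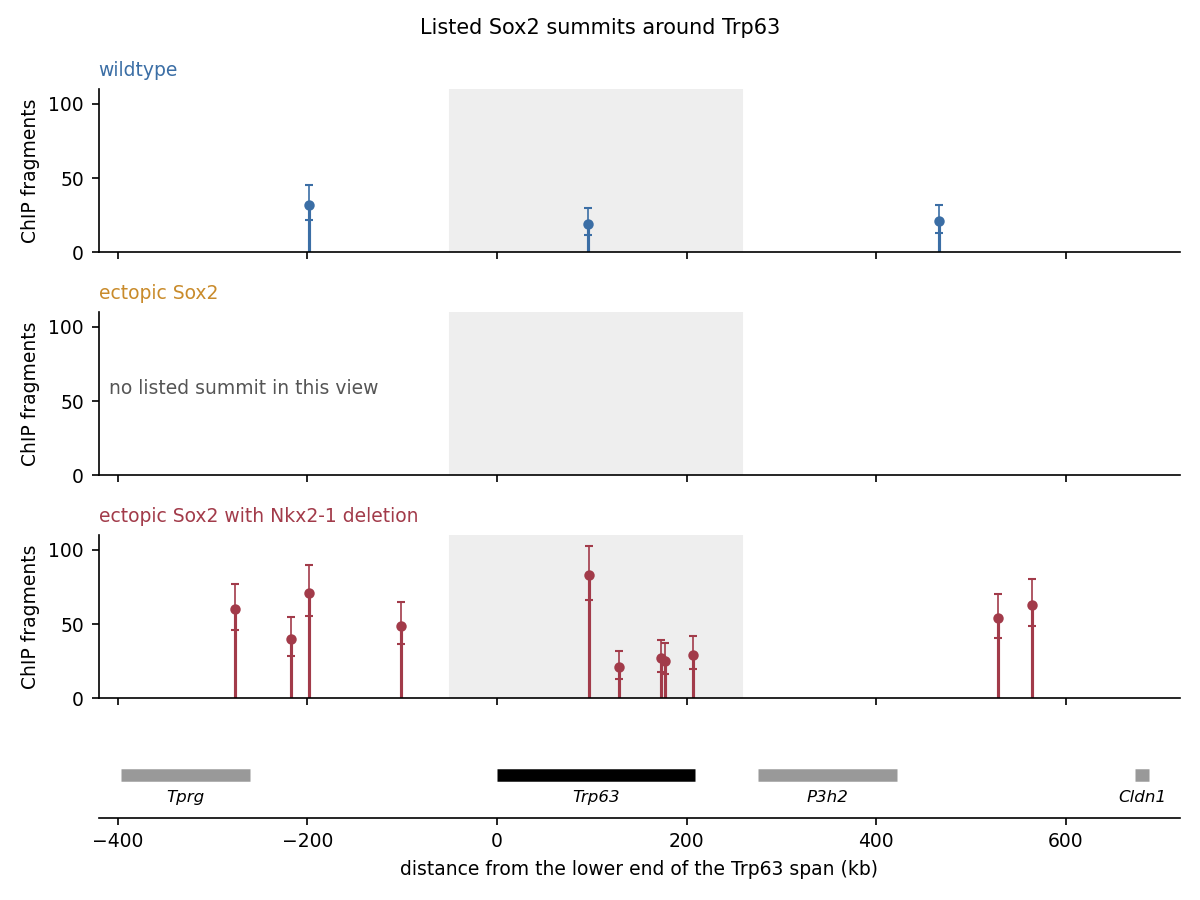
ChIP fragments (vertical axis) at each listed summit against its distance in kb from the lower end of the Trp63 span (horizontal axis), for the 3 libraries, with 95% Poisson intervals as bars; grey marks the span with 50 kb on either side, and the protein-coding genes are drawn beneath. Inside the grey area the Nkx2-1 deleted list has 5 summits, wildtype has 1 at the place of the strongest of them, and ectopic Sox2 has none.

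In wildtype the single Trp63 summit lay at 25780248, 91 bp from the strongest summit of the Nkx2-1 deleted list. Its region, 25780127 to 25780326, lay wholly inside the deletion region. It rested on 19 fragments (11.4 to 29.7), with a fold of 3.77 and a −log10 q of 2.09, and ranked 518 of 552 by q, so it was among the weakest summits listed in wildtype. The control background recovered at this place was 3 in both libraries, which is 4.20 times the genome-wide background of the wildtype list and 4.88 times that of the Nkx2-1 deleted list. At the other 4 summits it was 1.24 to 1.63 times. These backgrounds are small values given without an interval. The degree of elevation, and the fragments needed for a listing that rest on it below, carry an error that was not estimated.

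Scaled by depth, the shared region had 2.90 times (interval 1.74 to 5.05) the fragments with Nkx2-1 deletion that it had in wildtype. The wildtype and Nkx2-1 deleted lists shared 269 regions, whose depth-scaled ratio had a median of 1.33, an interquartile range of 1.09 to 1.69 and extremes of 0.466 and 3.32. The Trp63 region ranked 5 of 269. Relative to that median its ratio was 2.18 (1.31 to 3.81), an interval that does not reach 1 and treats the median as known. After subtraction of the control background the ratio was 3.37, against a median of 1.36, and ranked 2. Trp63 was selected for description with this difference already known, so the rank is a description and was not tested.

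**Figure D2:**
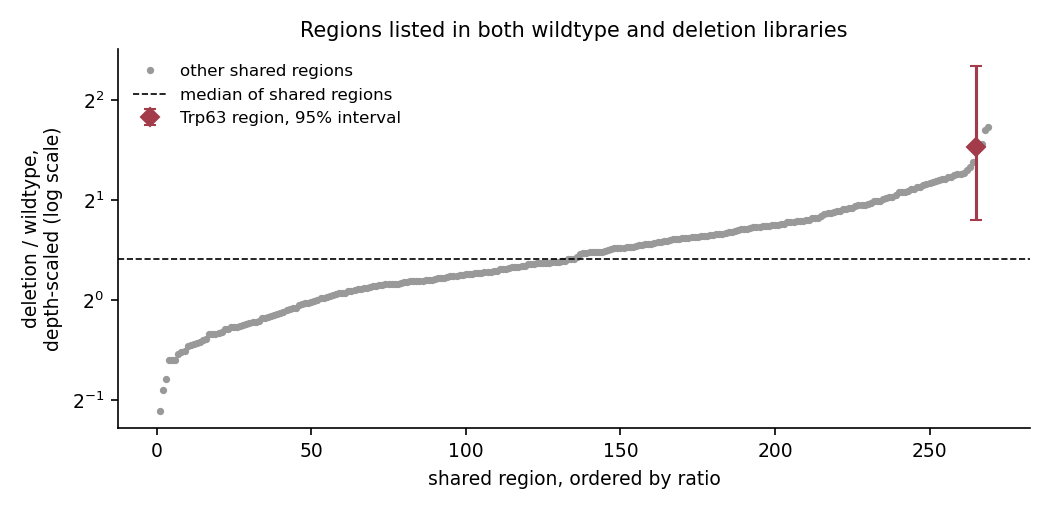
Depth-scaled ratio of fragments, Nkx2-1 deleted library over wildtype (vertical axis, log scale), for the 269 regions in both lists ordered by that ratio (horizontal axis); the diamond is the Trp63 region with its 95% interval and the dashed line the median. The Trp63 region, at 2.90, lies near the upper end, and its interval stays above the median of 1.33.

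Whether an absent summit means a lower level depends on what each library could list. At its genome-wide background, the weakest p-value in a list corresponded to 10 fragments in the wildtype and ectopic Sox2 libraries and 15 in the Nkx2-1 deleted library, and those were also the fewest fragments under any listed summit. At the strongest Trp63 region, 83 fragments with Nkx2-1 deletion are equivalent to 43.7 (interval 34.8 to 54.1) at the ectopic Sox2 depth. If the local control background were raised there to the same degree, 19 fragments would have been enough for a listing. By depth alone, the level found with Nkx2-1 deletion was therefore within reach of the ectopic Sox2 library, which lists no summit there. Divided also by 1.27, the median depth-scaled ratio over the 117 regions these 2 lists share, the level was 34.5 (27.4 to 42.7). Regions too weak to be listed with ectopic Sox2 do not enter that median, so it may understate the difference between the libraries. Whether the ectopic Sox2 library was weaker beyond its depth was not tested. Whether the wildtype level was within reach cannot be told. Its 19 fragments are equivalent to 15.1 (9.07 to 23.5) at the ectopic Sox2 depth, an interval that spans the 18 needed at the wildtype degree of background, and 10 would be needed at the genome-wide background.

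For the 4 weaker summits the comparison with ectopic Sox2 is at the limit of depth. Their levels with Nkx2-1 deletion are equivalent to between 11.0 and 15.3 fragments in the ectopic Sox2 library, where 10 or 11 would be needed, and the lower bounds of their intervals, 6.84 to 10.2, fall on both sides of 10 but under the number needed at each summit. Their absence from the ectopic Sox2 list therefore does not show a lower level. At the wildtype depth the equivalents are 13.9 to 19.2 fragments against a need of 10 or 11. The lower bound exceeded the need at 3 of these summits (11.8 against 11, 10.7 against 10 and 12.9 against 11) and not at the summit 128.5 kb into the gene (8.62 against 11). Divided also by the median of 1.33 over the regions shared with wildtype, the lower bounds at those 3 summits were 8.90, 8.09 and 9.71, all under the need, so their absence from the wildtype list does not show a lower level either. These bounds carry the counting error of the Nkx2-1 deleted library and not that of the library without the summit.

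**Figure D3:**
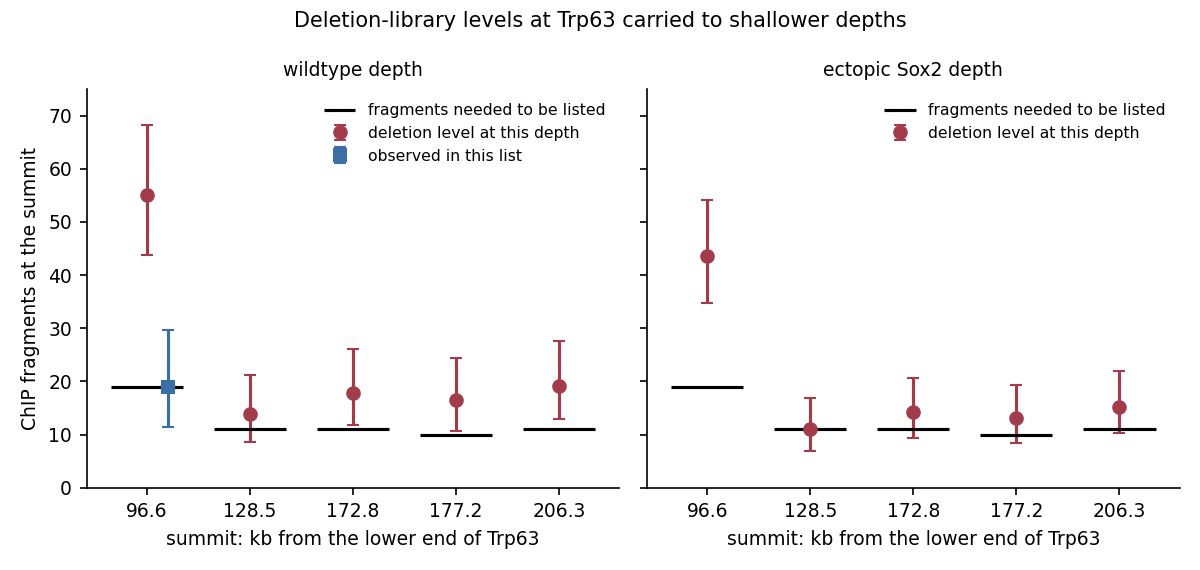
Fragments (vertical axis) that each of the 5 Trp63 summits of the Nkx2-1 deleted list would have at the depth of the wildtype (left) and ectopic Sox2 (right) libraries, by kb from the lower end of the gene (horizontal axis), with 95% intervals; black lines give the fragments needed to be listed at the same degree of control background, and the blue square is the wildtype observation. Only the strongest summit stands well above the need at the ectopic Sox2 depth, at 43.7 against 19.

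Summits of the Nkx2-1 deleted list were more numerous at Trp63 than at nearly all genes. Of 21883 protein-coding genes, 0.0731% (16 genes) had 5 or more within 50 kb, 6 genes had more than Trp63 and 10, Trp63 included, had exactly 5. Most genes with any summit had a single one (2267 of 2872). The 6 genes above Trp63 were Sox6 with 9 summits, and Sprr2a2, Ahnak, Gnaq, Slc25a21 and Ctnna2 with 6 each. At Trp63 all 5 lay inside the span, and 4 of the 5 had a −log10 q of at least 5. Of all protein-coding genes, 0.0366% (8 genes, Trp63 included) had 5 or more summits inside the span.

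A long gene has more room for summits. Trp63 is longer than most, with 4.30% of protein-coding genes having a longer span. Among the 563 genes of similar span (from 0.8 times its own to the same factor above it), a summit within 50 kb was listed for 28.8% in the Nkx2-1 deleted library, 9.06% in wildtype and 2.66% in the ectopic Sox2 library, and 0.533% (3 genes) had 5 or more after Nkx2-1 deletion. Among the 940 longer genes that share was 0.851% (8 genes). Counted per 100 kb of span plus window, Trp63 had 1.62 summits and ranked 220 of 21883, since short genes with a few summits lead by that measure.

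**Figure D4:**
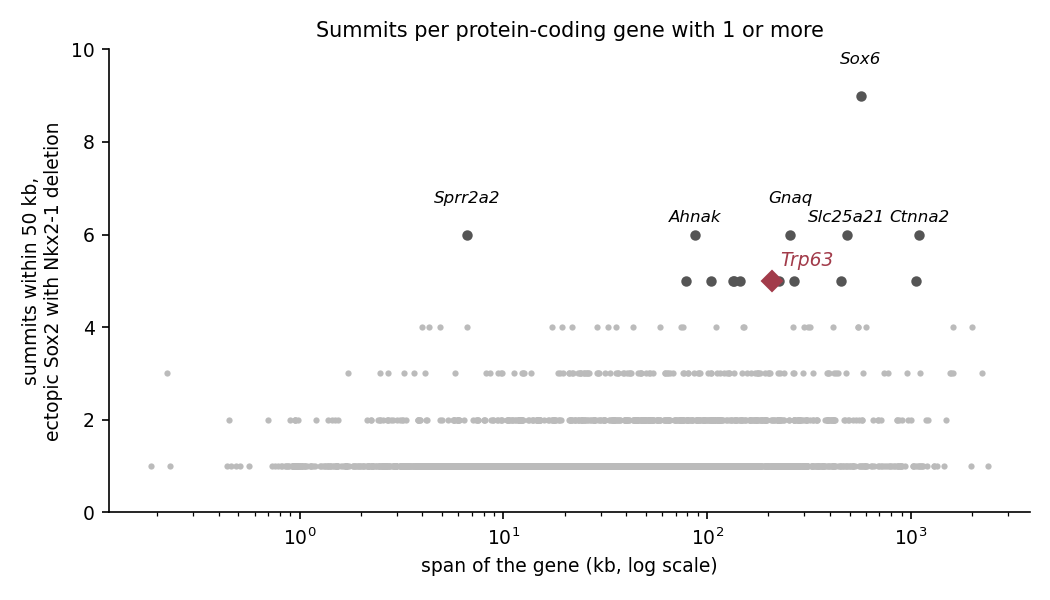
Number of summits within 50 kb with Nkx2-1 deletion (vertical axis) against gene span in kb (horizontal axis, log scale) for the 2872 protein-coding genes with at least 1 summit; dark points have 5 or more and the diamond is Trp63. Trp63 has 5 summits, and the 6 labelled genes above it have 6 or 9.

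The protein-coding genes within 500 kb of Trp63 are Tprg, P3h2 and Cldn1, and each had fewer summits than Trp63 in the Nkx2-1 deleted list. On the lower side, 260 kb away, Tprg had 2 summits within 50 kb with Nkx2-1 deletion, 1 of them inside the gene at 25407228 to 25407579 with 60 fragments (45.8 to 77.2), and 0 in the other lists. On the upper side, 67.2 kb away, P3h2, which encodes a collagen prolyl hydroxylase, had 0 with Nkx2-1 deletion and 1 in wildtype, 43.6 kb from the gene with 21 fragments. Cldn1, the gene of the tight junction protein claudin-1, 465 kb away, had 0 in each list. Of the 4 noncoding genes within 500 kb, the pseudogene Gm18896 had 3 summits within 50 kb with Nkx2-1 deletion and 1 in wildtype. Of those 3, 2 are the summits counted for Tprg. The remaining summit and that of wildtype lie in the region listed in both libraries that is described in the next paragraph. The long noncoding RNA gene Gm41436 had 2 with Nkx2-1 deletion. The pseudogene Gm20007 and the small nuclear RNA gene Gm24928, which lies inside Trp63, had 0 in each list.

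The nearest summit outside the 50 kb limit lay 101 kb below the gene in the Nkx2-1 deleted list, at 25582280 to 25582527, with 49 fragments (36.3 to 64.8), a fold of 5.44 and a −log10 q of 6.70. Its nearest protein-coding gene is Trp63, and it is not counted above. Further down, a region 198 kb from Trp63 was listed with Nkx2-1 deletion (71 fragments, 55.5 to 89.6) and in wildtype (32 fragments, 21.9 to 45.2). The ectopic Sox2 list had no summit within 500 kb of Trp63, on a chromosome with 7 summits in that list, 23 in wildtype and 144 with Nkx2-1 deletion.

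The genes whose counts were most like those of Trp63 were found by the Euclidean distance between log2(summits within 50 kb + 1) over the 3 libraries, with ties ordered by span. Trp63 had counts of 1 (wildtype), 0 (ectopic Sox2) and 5 (Nkx2-1 deletion). Arntl, which encodes the clock factor Bmal1, Cdk19, a kinase of the Mediator complex, and Eva1c had the same counts (distance 0). Gnaq, a G protein alpha subunit gene, followed with 1, 0 and 6 (distance 0.22), and then Cftr, the chloride channel gene of cystic fibrosis, and the polarity gene Pard3, both with 1, 0 and 4 (distance 0.26). A summit in wildtype and with Nkx2-1 deletion but not with ectopic Sox2 was found at 1.27% of protein-coding genes (278 genes).

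The ratio between the wildtype and Nkx2-1 deleted libraries was lower at the shared regions of these genes, with intervals that mostly overlapped that of Trp63. A region in both the wildtype and the Nkx2-1 deleted list lay near 4 of the 6, with depth-scaled ratios of 1.20 (0.687 to 2.15) at Eva1c, 0.836 (0.489 to 1.44) at Gnaq, 1.59 (1.03 to 2.53) at Cftr and 1.13 (0.705 to 1.83) at Pard3, against 2.90 (1.74 to 5.05) at Trp63. The interval of Trp63 overlapped those of Eva1c, Cftr and Pard3, and lay above that of Gnaq. At Arntl and Cdk19 the wildtype region, with 44 and 26 fragments, was not overlapped by one of the Nkx2-1 deleted library.

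A list of 43 genes of the p63 network, made up of the p53 family, proteins that act on p63 and genes known as p63 targets in epithelia, was read beside Trp63. With Nkx2-1 deletion, 15 of the 43 (34.9%) had a summit within 50 kb, against 13.1% of all protein-coding genes. In wildtype there were 6 (14.0%, against 2.85%) and with ectopic Sox2 1 (2.33%, against 1.53%). Without Trp63 itself, there were 14 of 42 (33.3%) with Nkx2-1 deletion and 5 of 42 (11.9%) in wildtype. The shares of all genes, here and for the groups below, were not matched to the spans of the network genes. A summit counts for every gene within 50 kb of it, and whether another gene lay nearer was not examined for the network. The list was put together with results of these data known, and it includes basal cell genes, so these shares are a description. Trp63 had the most summits of the list with Nkx2-1 deletion, 5 against at most 3 for another member, and the highest −log10 q.

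Within the p53 family, Trp53 and Trp73 had no summit within 50 kb in any library. Of 12 genes that act on p63, 3 (25%, against 13.1% of all genes) had one with Nkx2-1 deletion. Wwp1, a ubiquitin ligase, had 59 fragments and a −log10 q of 9.86 in a region 19.5 kb away (chromosome 4, 19728348 to 19728628). Mdm2, the ubiquitin ligase of p53, had 64 fragments 25.5 kb from the gene, with a −log10 q of 7.63. Runx1, a transcription factor gene, had 2 summits inside the gene, with 56 and 52 fragments and −log10 q of 5.07 and 4.49. Wildtype also had a summit inside Runx1, with 11 fragments and at another place. It also had 1 summit near Ppp1r13l, which encodes the p53 family inhibitor iASPP, with 25 fragments 3337 bp from the gene. Itch, Fbxw7, Hipk2, Tfap2a, Tfap2c, Notch1, Egfr and Kmt2d had none within 50 kb in any library.

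Of 8 transcription factors placed downstream of p63, Grhl2, a grainyhead factor of epithelial junctions, was the 1 with a listed region. It held 2 summits inside the gene with Nkx2-1 deletion, with 39 and 32 fragments and −log10 q of 2.37 and 1.99. Satb1, Dlx3, Dlx5, Klf4, Zfp750, Ovol1 and Grhl3 had no summit within 50 kb in any library.

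Of the adhesion and structural targets, 8 of 12 had a summit within 50 kb in the Nkx2-1 deleted list (66.7%, against 13.1% of all genes). Within 10 kb it was 2 of 12 (16.7%, against 6.46%), and with a −log10 q of at least 5 it was 3 of 12 (25%, against 8.83%). By −log10 q the leading 4 were Dsc3, a desmosomal cadherin gene, at 12.5 with 43 fragments inside the gene, Fras1, a basement membrane protein gene, at 6.70 with 48 fragments, Col17a1, the hemidesmosomal collagen gene, at 5.97 with 47 fragments, and Dst, the gene of the hemidesmosomal linker dystonin, at 4.31 with 28 fragments. The others were Itga6 at 4.11, 48.0 kb from the gene, Krt5 at 3.76, Krt14 at 1.45, 34.0 kb from the gene, and Perp at 1.38. The summits at Krt14 and Perp ranked 2563 and 2576 of 2589 by q, among the weakest listed. Itga3, Itgb4, Nectin1 and Lamb3 had none within 50 kb in any library. Krt5, the basal keratin gene, was the network's single gene in the ectopic Sox2 list. The same region, 12.5 kb from Krt5, had 29 fragments there and 60 with Nkx2-1 deletion, a depth-scaled ratio of 1.09 (0.688 to 1.76), which includes 1. At Perp, a desmosomal p63 target, a region in wildtype and with Nkx2-1 deletion had 15 and 34 fragments, a ratio of 1.5 (0.797 to 2.97), which also includes 1. Col17a1 had a wildtype summit at another place, with 21 fragments.

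Among 8 signalling and cell cycle targets, 2 had a summit with Nkx2-1 deletion. Pthlh, the gene of parathyroid hormone-related protein, had a region at chromosome 6, 147277174 to 147277658, 13.5 kb away, with 50 fragments and a −log10 q of 10.5. Fgfr2, a fibroblast growth factor receptor gene, had 30 fragments inside the gene and a −log10 q of 4.88. Igfbp3 had a summit in wildtype alone, with 29 fragments 22.4 kb away. Jag1, Jag2, Fgfr3, Cdkn1a and Sfn had none within 50 kb.

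**Figure D5:**
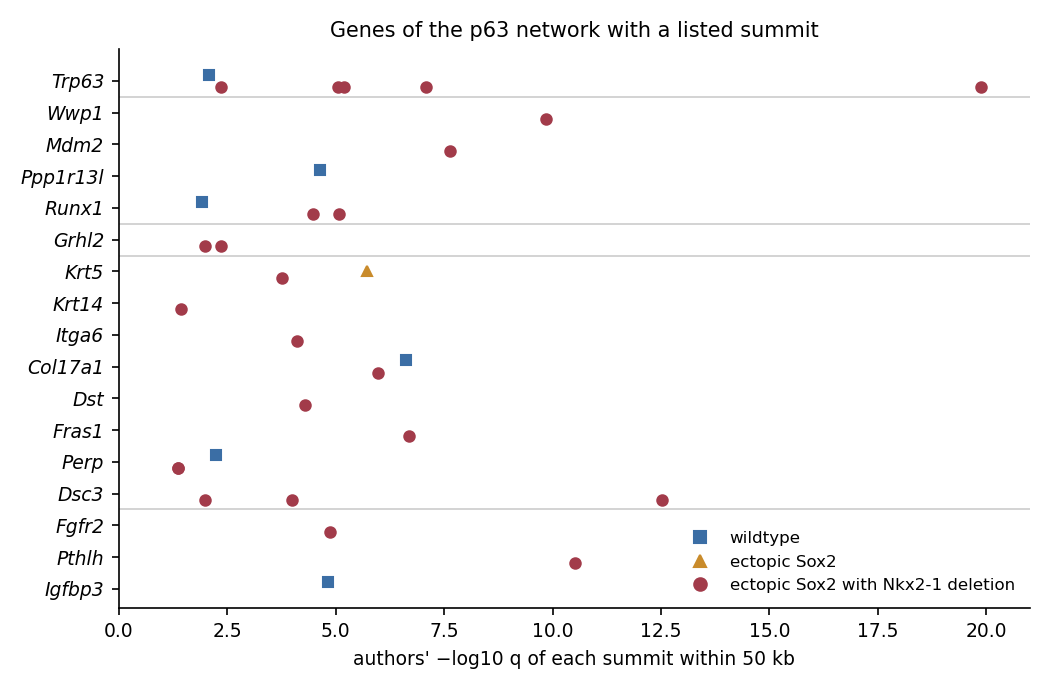
Authors' −log10 q (horizontal axis) of each summit within 50 kb of the 17 network genes with a listed summit in any library (vertical axis), grouped by role with grey lines; squares are wildtype, triangles ectopic Sox2 and circles Nkx2-1 deletion, and q values rank summits within a list only. The strongest Trp63 summit, at 19.9, is the highest point of the network, followed by Dsc3 at 12.5.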

How the data were processed

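The deposited lists of the 3 Sox2 ChIP libraries are in the narrowPeak format, 1 per library and not pooled. The submitters' processing notes name Bowtie2 2.2.9, SAMtools 1.4, MACS2 2.1.1, HOMER 4.8.3 and mm10. Neither the control library behind each list nor the calling threshold is stated there. The authors' score, fold (a ratio over local control background), −log10 p and −log10 q were used per summit within a list. Positions are printed counting from 1.

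Fold and −log10 p were solved together for ChIP pileup and control background, as fold = (pileup + 1) / (background + 1) and a Poisson upper tail. Pileups were whole fragments times 1 scale per library (tolerance 0.02 in the search for the scale, 0.005 after it), with a single solution for 99.5%, 99.6% and 99.9% of summits in wildtype, ectopic Sox2 and Nkx2-1 deletion, including every Trp63 summit. The method was tested on simulated data. Coverage is the genome-wide background divided by the scale. Intervals are exact 95% Poisson and, for ratios, exact conditional binomial. Genes are RefSeq protein-coding spans of GRCm38.p6. Regions overlapped at a minimum of 1 bp, and a region was represented by its summit of highest q.

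Named genes are Trp63, protein-coding genes within 500 kb, network genes with a summit (values for up to 4 a role, by −log10 q), and the 6 most alike. Genes above Trp63 in summit count, other network genes given with values, and 4 noncoding genes were named after their values were seen. The gene, the lists and the tests were chosen with earlier results of these data known. Computation used Python 3.11.15, NumPy 2.4.6, pandas 2.3.3 and SciPy 1.17.1. A planned entry of the network list is not reported here. Motif shares were planned but not run, since no genome sequence was used here.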

Additional observations from a re-analysis of the deposited data

How the results depend on the processing

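With 1 library per condition no replicate could be left out. No paired analysis was possible because each group holds 1 library. The Trp63 count was 0 with ectopic Sox2 and 4 or 5 with Nkx2-1 deletion under every window (inside the span, 10 kb, 100 kb), with −log10 q of at least 2 or 5 and with regions counted once; wildtype had 1, except 0 with −log10 q of at least 5. The ratio at the shared Trp63 region was 2.90, 3.37 with background subtracted, 2.18 divided by the median of shared regions and 2.90 with an overlap of at least 50% of the shorter region. By summits the rank of Trp63 with Nkx2-1 deletion was 7, 220 per 100 kb and 3 inside the span. In wildtype, where most genes with a summit also have 1, the rank was 47, 540 and 29.

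The share of protein-coding genes with a summit, in wildtype, ectopic Sox2 and Nkx2-1 deletion, was 1.37%, 0.736% and 6.46% within 10 kb, 4.66%, 2.45% and 20.7% within 100 kb, 1.01%, 0.439% and 4.41% inside the span, and 1.87%, 1.18% and 8.83% for a −log10 q limit of 5. Network counts in the same order were 3, 0 and 6 within 10 kb, 6, 1 and 17 within 100 kb, and 1, 1 and 8 above that q limit. Fewer genes or summits enter by construction in the narrower settings. Depth limits the comparison of the 4 weaker Trp63 summits with ectopic Sox2, and of the summit 128.5 kb into the gene with wildtype. At the other 3, the comparison with wildtype depends on the division by the median of shared regions. Division by the median of shared regions, for the levels carried to those depths, was chosen after seeing the data.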

Other observations

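In the Nkx2-1 deleted list, a stretch as short as the 110 kb (109.7 kb) that holds the 5 Trp63 regions contained 5 or more regions at 10 places in the genome, Trp63 included. The others opened nearest to Tmx1, Macc1, Eva1c, Zfp608, Gnaq, Tmc1, Myof, Sprr2a1 and the pair Eef1g and Ahnak. Of the 10 places, 4 lie on chromosome 19 and 2 on chromosome 16. Eva1c, which had the same counts of summits as Trp63 in the 3 libraries, is the other place on chromosome 16, at 90820365. This measure was chosen after the values were seen.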
